A study of Mus musculus with 6 samples.

Results

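The 10 imprinted genes described here were read in regulatory T cells (Treg, CD4+CD25+), which hold immune responses in check: H19, Igf2r, Cdkn1c, Peg3, Impact, Mest, Plagl1, Grb10, Snrpn and Dlk1. Members were the probe sets whose platform annotation gave 1 gene symbol from these 10 names. There were 15 such probe sets of 22626 that were not controls, and they measured 9 of the 10 genes. No probe set was annotated to H19 alone. The cells were separated magnetically from Balb/c mice in 2 groups of 3 samples, wild type and MBD2-/-, the latter called knockout here. The submitters described the samples as independent, with no age, sex or treatment of the mice named in the sources used here. RNA was read on 1 single-colour array per sample, as RMA values on the log2 scale, a unit without read depth. Precision was limited by the number of arrays.

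Imprinted genes are expressed mainly from the copy inherited from one parent. The silent and the active copy are told apart by DNA methylation that is laid down in the germ line at control regions and kept in body cells. Mbd2 binds methylated CpG dinucleotides and recruits a repressive chromatin complex, and the comparison of knockout with wild type asked whether RNA levels differed when it was missing. Many imprinted genes act on fetal growth and are shut down in most tissues after birth. The arrays measured total RNA and carried no information on which parental copy it came from.

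Because the binding of Mbd2 depends on CpG, the promoter letters of 4 genes that the results turn on are shown first, as RefSeq sequence of build GRCm38.p6. They are Igf2r, a member with signal above background, Plagl1, with 1 probe set at the edge of it, Peg3, a member without it, and Slc22a2, an imprinted neighbour of Igf2r whose level differed between groups when wild-type replicate 3 was left out. Each line gives the 250 bases before the annotated start, 5′ to 3′ in the direction of transcription, and capitals mark every CG.
Igf2r, chr17:12769707-12769956, - strand: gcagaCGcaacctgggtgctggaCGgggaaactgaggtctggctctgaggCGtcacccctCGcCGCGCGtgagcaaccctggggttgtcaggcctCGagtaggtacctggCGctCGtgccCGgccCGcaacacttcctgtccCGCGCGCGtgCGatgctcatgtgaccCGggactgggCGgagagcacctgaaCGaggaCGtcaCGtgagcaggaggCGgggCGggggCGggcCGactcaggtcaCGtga
Plagl1, chr10:13090582-13090831, + strand: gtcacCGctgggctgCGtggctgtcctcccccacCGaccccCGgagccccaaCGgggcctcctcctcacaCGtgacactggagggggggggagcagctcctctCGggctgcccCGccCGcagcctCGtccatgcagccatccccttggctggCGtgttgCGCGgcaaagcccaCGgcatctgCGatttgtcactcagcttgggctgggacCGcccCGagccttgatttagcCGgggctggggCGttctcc
Peg3, chr7:6730420-6730669, - strand: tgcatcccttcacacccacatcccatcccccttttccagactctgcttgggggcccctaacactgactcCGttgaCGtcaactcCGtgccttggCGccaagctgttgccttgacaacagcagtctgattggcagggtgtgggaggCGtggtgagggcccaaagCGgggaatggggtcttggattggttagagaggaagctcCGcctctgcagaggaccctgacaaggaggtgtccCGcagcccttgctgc
Slc22a2, chr17:12583939-12584188, + strand: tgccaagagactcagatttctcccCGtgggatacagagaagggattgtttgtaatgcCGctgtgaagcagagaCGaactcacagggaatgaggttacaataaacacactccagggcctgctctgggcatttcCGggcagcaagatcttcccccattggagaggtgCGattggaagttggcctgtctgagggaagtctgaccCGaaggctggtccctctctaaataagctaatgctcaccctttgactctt

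The Igf2r window held 27 CG, and 8.56% of 32851 RefSeq promoter windows of this length held as many or more. Plagl1 held 19, Peg3 8 and Slc22a2 6, against a median of 6 over all windows. The letters CG read the same on both strands, and 92.1% of all windows held them at least once. The windows used covered 7 of the 10 genes with 13 windows, and none was used for H19, Cdkn1c and Impact. The selection left out a chromosome before matching, so a gene without a window here may still have an annotated promoter. Among the other windows, those of Grb10 held 40 and 8, those of Mest 7, 14 and 14, that of Dlk1 8, and those of Snrpn 2, 3, 3 and 4. Such a count describes the sequence and says nothing of its methylation in these cells, which was not measured here.

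Wild-type replicate 3 stood apart, so each value is given with it (6 arrays) and without it (5 arrays). Its correlation with the other arrays across probe sets lay between 0.749 and 0.767 and among the rest between 0.956 and 0.997. Of the 11 measured markers of Treg and CD4 T cells, 10 lay above background on all 5 arrays. Both Mbd2 probe sets were lower on every knockout array than on every wild-type array (5.71 to 6.14 against 6.93 to 8.80, and 4.57 to 4.68 against 6.38 to 6.92). No source used here places them inside or outside the deletion. The summed log2 level of 13 measured markers of neutrophils and other granulocytes was 70.6 to 80.2 in wild type and 120.43 to 125.75 in knockout. Bulk RNA cannot tell a change in the number of cells of a type from a change in RNA per cell.

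As a measure of background, 46 genes of other tissues (such as Alb of liver and Krt14 of skin) were used, with 78 probe sets. Their median lay between 4.41 and 4.53 on the 5 arrays and their 95th percentile between 5.72 and 5.91. In wild-type replicate 3 the median was 5.44 and the 95th percentile 7.46. A member was counted as above background in a group when it passed that 95th percentile on every array of the group. With 6 arrays, 1 of the 15 probe sets did so in wild type and 3 in knockout. Without wild-type replicate 3 it was 4 in wild type. The probe sets above background on all 5 arrays were both of Igf2r and that of Impact.

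**Figure D1:**
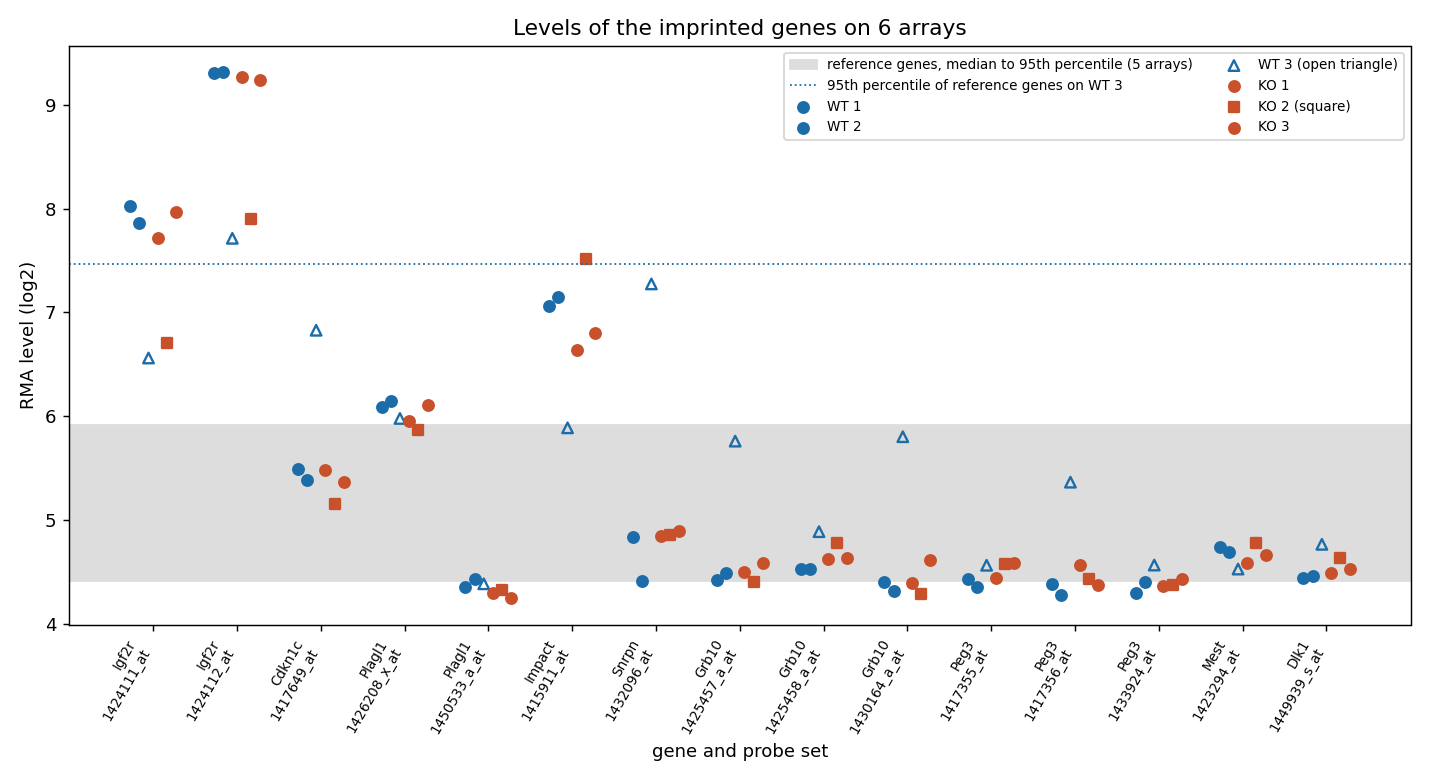
RMA level (log2) of the 15 member probe sets on each array, blue for wild type (WT) and red for knockout (KO), with the reference genes' range from median to 95th percentile on 5 arrays in grey. Igf2r and Impact sit above the grey band on those 5 arrays, Plagl1 has 1 probe set at its upper edge, and wild-type replicate 3 (open triangles) lies apart in both directions.

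No member passed the test for a difference between knockout and wild type, with 6 arrays or with 5. Of the 15 probe sets, 0 passed an adjusted p of 0.05 in the limma fit of 6 arrays, with or without a filter on dim probe sets, against 0.103% of all probe sets tested after the filter and 0.0354% without it. Without wild-type replicate 3 the count was again 0 by limma, against 1.37% of all with the filter and 0.99% without. In the fits without the filter 0 of the 15 had an unadjusted p under 0.05, against 3.43% of all probe sets with 6 arrays and 17.7% with 5. The median difference of the 15, knockout minus wild type, was -0.03 (log2) with 6 arrays and 0.04 with 5, beside -0.03 and -0.01 over all probe sets. A missed threshold does not show equal levels, and the 95% intervals given below say how large a difference each fit leaves room for.

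The filter dropped the dimmest 40% by mean level. It kept 6 member probe sets with 6 arrays and 5 of them with 5 arrays. The members' differences, SEs and adjusted p-values below come from the limma fit without that filter, so that every member has one, and those of the other gene lists from the fit with it, unless said otherwise. Groups without overlap were counted over all 15 members. With 6 arrays 1 of the 15 had no overlap, a lower one, against 13.4% of all probe sets (7.21% higher and 6.2% lower). With 5 arrays it was 6 of the 15, against 39.2% of all. Of these 4 were higher, against 15.9%, and 2 lower, against 23.3%.

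**Figure D2:**
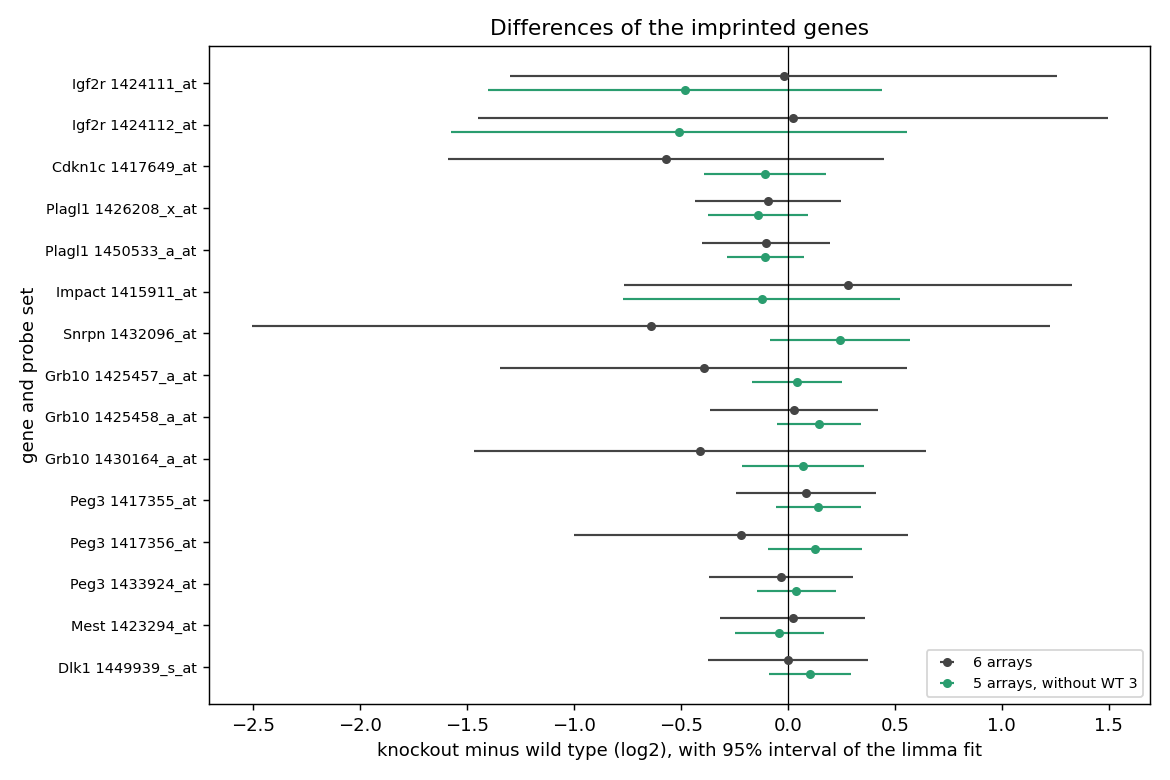
Difference between knockout and wild type (log2) for the 15 member probe sets, with the 95% interval of the limma fit, for 6 arrays (grey) and for 5 arrays without wild-type replicate 3 (green). Every interval includes 0, and leaving out that array narrows most of them, for Snrpn from -2.51 to 1.23 down to -0.08 to 0.57.

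The first group of members restrains growth and is expressed from the maternal copy in most mouse tissues. Igf2r encodes the receptor that carries the growth factor Igf2 to lysosomes for breakdown and sorts lysosomal enzymes that bear mannose 6-phosphate. Its probe set 1424112_at read 9.31, 9.31 and 7.71 on the wild-type arrays and 9.27, 7.90 and 9.24 on the knockout arrays, each in the order of replicates 1 to 3. Each group thus held 1 low array, wild-type replicate 3 and knockout replicate 2. The groups overlapped on 6 arrays but not on 5, where all knockout values lay below 9.31. The wild-type mean was 8.78 ± 0.92 (SD, n = 3) and the knockout mean 8.80 ± 0.78 (SD, n = 3). They differed by 0.02 (log2) with an SE of 0.60 (limma, adjusted p = 0.99). The interval ran from -1.45 to 1.496.

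The other Igf2r probe set, 1424111_at, showed the same 2 low arrays. It read 8.03, 7.86 and 6.56 in wild type and 7.72, 6.70 and 7.96 in knockout, in the same order, with overlap in both cases. Its difference was -0.02 with 6 arrays and -0.48 with 5 (SE 0.37, limma adjusted p = 0.57). For 1424112_at the 5-array difference was -0.51 (SE 0.43, limma adjusted p = 0.61). Without both low arrays the differences of the pair were -0.10 and -0.06, so that the 5-array values rested on knockout replicate 2. On that array the summed level of the 11 Treg and CD4 T cell markers was 88.8, against 97.3 and 98.2 on the other knockout arrays and 103.4 to 103.9 on wild-type replicates 1 and 2. The 14 markers of monocytes, macrophages and dendritic cells summed to 115.1 there, 96.4 to 97.0 on the other knockout arrays and 71.7 to 74.2 on wild-type replicates 1 and 2. The part of these shifts in the Igf2r values was not tested.

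Cdkn1c encodes p57, an inhibitor of cyclin-dependent kinases. Its probe set read 5.49, 5.39 and 6.83 in wild type and 5.48, 5.15 and 5.37 in knockout. It passed the filter on dim probe sets but lay under the reference 95th percentile on every array. The difference was -0.57 with 6 arrays (SE 0.41, limma adjusted p = 0.82) and -0.11 without wild-type replicate 3 (SE 0.11, limma adjusted p = 0.70). The larger figure thus came from wild-type replicate 3, which lay 1.39 above the mean of the other wild-type arrays.

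Grb10 encodes an adaptor that dampens insulin and growth factor receptor signalling. Its 3 probe sets lay between 4.28 and 4.77 on the 5 arrays, within 0.31 of the reference median on each. Wild-type replicate 3 read 5.76, 4.89 and 5.80, where the reference median was 5.44. The 6-array differences were -0.39, 0.03 and -0.41 and the 5-array differences 0.04, 0.15 and 0.07, so that the sign of 2 of the 3 turned. H19, a long noncoding RNA of the same growth-restraining group and the host of a microRNA, was covered only by a probe set annotated to H19 and Mir675 together. That probe set read 4.30, 4.33 and 6.04 in wild type and 4.42, 4.38 and 4.38 in knockout, at background on all but wild-type replicate 3. As it has 2 gene symbols it was not counted as a member.

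The second group is expressed from the paternal copy. Plagl1 encodes a zinc finger transcription factor that can halt the cell cycle and that regulates other imprinted genes. Its probe set 1426208_x_at read 6.09, 6.15 and 5.98 in wild type and 5.95, 5.87 and 6.11 in knockout, with overlap. All 6 values lay between 5.87 and 6.15, wild-type replicate 3 included. The difference was -0.09 (SE 0.14, limma adjusted p = 0.82) with 6 arrays and -0.14 (SE 0.09, limma adjusted p = 0.51) with 5, and the intervals ran from -0.43 to 0.25 and from -0.37 to 0.09. The level passed the reference 95th percentile on 4 of the 5 arrays, all but knockout replicate 2. That exception depended on the reference gene Mbp. With Mbp the percentile on that array was 5.91 and without it 5.62, under the 5.87 read there. The suffix _x_ marks a probe set in which some probes may match other transcripts.

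The other Plagl1 probe set, 1450533_a_at, read 4.35, 4.43 and 4.38 in wild type and 4.30, 4.32 and 4.24 in knockout. These groups did not overlap, the only such member with 6 arrays, yet all values lay under the reference median or within 0.02 of it. The difference was -0.10 (SE 0.12, limma adjusted p = 0.82). On 4 of the 5 arrays the 2 probe sets of Plagl1 thus lay on different sides of the reference 95th percentile.

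Impact encodes an inhibitor of Gcn2 (Eif2ak4), the kinase that senses amino acid shortage. Its probe set read 7.06, 7.15 and 5.89 in wild type and 6.64, 7.51 and 6.80 in knockout. Knockout replicate 2 was the highest of the 6 arrays and wild-type replicate 3 the lowest, and the groups overlapped. The difference was 0.28 with 6 arrays (SE 0.42, limma adjusted p = 0.82) and turned to -0.12 with 5 (SE 0.26, limma adjusted p = 0.86). With these 2 arrays left out together it was -0.39 (limma adjusted p = 0.028 with the filter and 0.030 without). With the filter that fit of 4 arrays called 1 of 5 tested member probe sets lower, against 10.7% of all tested. Without it, 1 of 15 was called lower, against 6.15% of all. Eif2ak4 read 5.35, 5.43 and 4.79 in wild type and 5.13, 5.17 and 5.195 in knockout.

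Snrpn encodes a protein of the small nuclear ribonucleoproteins that splice RNA, most abundant in brain. The probe set annotated to it alone read 4.83, 4.41 and 7.27 in wild type and 4.85, 4.86 and 4.89 in knockout. Apart from wild-type replicate 3 all arrays were near the reference median, and that array lay 2.65 above the mean of the other wild-type arrays. The difference was -0.64 with 6 arrays (SE 0.75, limma adjusted p = 0.82) and 0.24 with 5 (SE 0.13, limma adjusted p = 0.41).

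A further 4 probe sets were annotated to Snrpn together with Snurf, the reading frame that shares its transcript, and were not counted as members. The probe set 1415895_at read 8.84, 8.70 and 9.92 in wild type and 8.93, 9.03 and 8.82 in knockout. Probe set 1415896_x_at read 8.25, 8.12 and 9.25 against 8.25, 8.46 and 8.22. Both were well above the reference range, and in both wild-type replicate 3 was the highest array. Of the 3636 probe sets at a level of 8 or more on wild-type replicates 1 and 2, 2.12% were higher in wild-type replicate 3. The 5-array differences of 1415895_at and 1415896_x_at were 0.16 and 0.13 (limma adjusted p = 0.47 and 0.59). By contrast, 1421063_s_at (4.52 to 4.72 on the 5 arrays) and 1435716_x_at (4.88 to 5.32) lay under the reference 95th percentile on every array. The probe sets of this gene thus disagreed on whether its RNA was above background.

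Peg3, a zinc finger protein, Mest, a hydrolase-like membrane protein, and Dlk1, a membrane ligand related to Notch ligands, are known from fetal and maternal growth and from stem cell compartments. Their 5 probe sets lay between 4.27 and 4.78 on the 5 arrays. In wild-type replicate 3 they read 4.53 to 5.36. With 6 arrays their differences ran from -0.22 for Peg3 1417356_at to 0.08 for Peg3 1417355_at, and with 5 arrays from -0.04 for Mest to 0.14 for Peg3 1417355_at. Dlk1 read 4.44, 4.46 and 4.76 in wild type and 4.49, 4.64 and 4.53 in knockout, a difference of -0.00 (SE 0.15, limma adjusted p = 0.998). At this level a difference in the array value gives no fold change in RNA. Of 10 measured stromal and endothelial markers 8 were at background on the 5 arrays, as were 7 of 9 markers of haematopoietic stem and progenitor cells, among them Kit and Cd34.

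**Figure D3:**
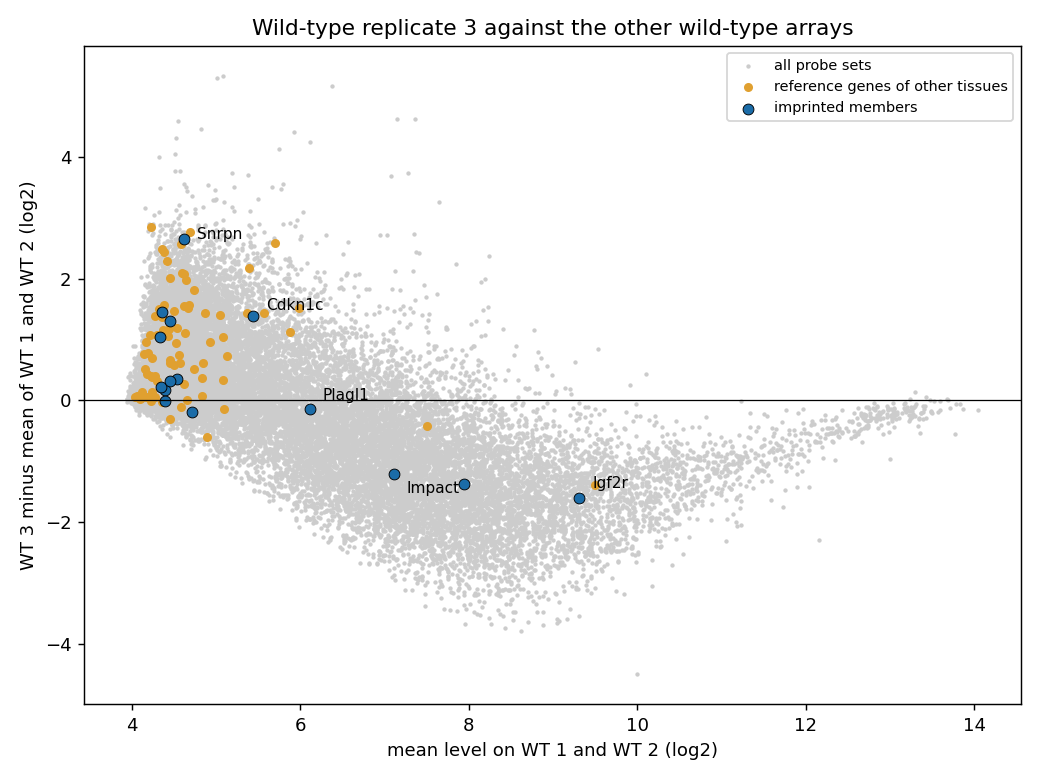
Wild-type replicate 3 minus the mean of wild-type replicates 1 and 2 (log2) against that mean, for all probe sets (grey), reference genes of other tissues (orange) and the members (blue). Most dim members, such as Snrpn, lie above 0, but Mest and the dim Plagl1 probe set lie slightly below it. Bright members such as Igf2r lie below 0, and the members lie within the cloud of the other probe sets.

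The shift of wild-type replicate 3 mostly followed the level of the probe set, in members and in others. Exceptions were the dim members Mest (-0.19) and Plagl1 1450533_a_at (-0.01). The bright probe sets shared by Snurf and Snrpn, not counted as members, were shifted up by 1.15 and 1.07. The array read above both other wild-type arrays for 9 of the 15 members and below both for 5. Among reference probe sets it read above both for 69 of 78, and among all probe sets for 48.2%. Probe sets under 5 on the other wild-type arrays were higher in it in 87.5% of cases, with a median shift of 0.51. Those from 6 to 8 had a median shift of -0.87 and those of 8 or more -1.46. The member shifts ran from -1.60 for Igf2r to 2.65 for Snrpn.

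To place the members among other imprinted genes, a list of 70 was used, of which 49 were measured on 86 probe sets. With 6 arrays 0 of 28 tested genes passed the threshold in limma, and 2 had an unadjusted p under 0.05, against 4.08% of all tested probe sets. The median difference was 0.09, beside 0.15 over all tested probe sets. Without wild-type replicate 3, 1 gene of 27 rose and 1 fell, against 0.633% and 0.737% of all tested, and 7 had an unadjusted p under 0.05, against 21.8% of all. The median was then 0.00 beside -0.07.

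The gene that fell was Slc22a2, which encodes an organic cation transporter, lies beside Igf2r and is imprinted in placenta. It read 5.90, 5.99 and 5.56 in wild type and 5.05, 4.61 and 4.92 in knockout, without overlap in 6 arrays. The difference was -0.95 with 6 arrays (SE 0.24, limma adjusted p = 0.604) and -1.08 with 5 (SE 0.15, limma adjusted p = 0.0388). All knockout values lay under the reference 95th percentile of their arrays, as did wild-type replicate 3. They also lay under the filter cutoffs of 5.18 with 6 arrays and 5.07 with 5. Slc22a2 thus passed the filter only through its wild-type values, and its adjusted p without the filter is not given here. The difference is one of array values. Airn, the noncoding RNA that runs antisense to Igf2r and silences its paternal copy, read 4.996, 5.13 and 5.74 in wild type and 5.28, 5.02 and 5.36 in knockout, with overlap. Every Airn value lay under the reference 95th percentile of its array. Neither Airn nor Igf2r passed the threshold in either fit.

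The gene that rose was Ddc, a decarboxylase of dopamine and serotonin synthesis that neighbours Grb10 and is imprinted in fetal heart. It read 5.496, 5.76 and 6.14 in wild type and 6.91, 6.49 and 6.90 in knockout, again without overlap. The difference was 0.96 with 6 arrays (SE 0.26, limma adjusted p = 0.732) and 1.14 with 5 (SE 0.17, limma adjusted p = 0.0454). Wild-type replicates 1 and 3 lay under the reference 95th percentile of their arrays, so that the wild-type level was at the edge of background and the difference is one of array values. Without the filter on dim probe sets the 5-array call was lost (limma adjusted p = 0.051). In the same arrays the monocyte, macrophage and dendritic cell markers summed to 71.7 to 82.1 in wild type and 96.4 to 115.1 in knockout, with 14 of 14 higher in knockout on 5 arrays. All 13 granulocyte markers were higher too, as were 9 of 9 markers of B and plasma cells (58.2 to 67.3 against 72.5 to 80.7). So were 8 of 8 of CD8 T and NK cells (46.5 to 51.0 against 51.8 to 59.0). These counts compare means only and take in Ebf1, Pax5 and Cd8a, which were at background on the 5 arrays. The erythroid and platelet list also had 8 of 8 higher, though Hba-a1, Alas2, Gp1bb, Klf1, Pf4 and Ppbp were at background. The part of such cells in the Ddc values was not tested.

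Of the other imprinted genes, 12 lay above the reference 95th percentile on all 5 arrays with at least 1 probe set. They included Gnas, which encodes the stimulatory G protein subunit and whose imprinting is limited to some tissues, and Ube3a, a ubiquitin ligase imprinted in neurons. Gnas 1450186_s_at read 11.09, 11.14 and 10.34 in wild type and 11.44, 11.48 and 11.39 in knockout, without overlap, at 0.58 with 6 arrays and 0.32 with 5 (limma adjusted p = 0.829 and 0.134). Commd1, a regulator of copper transport and NF-kappaB, was at 0.90 and 0.39 (limma adjusted p = 0.829 and 0.161). Of the neighbours of Cdkn1c, Cd81, Nap1l4, Tssc4 and Tspan32 were above background. Tspan32, a tetraspanin of blood cells, read 9.36, 9.22 and 7.67 in wild type and 8.59, 7.62 and 8.74 in knockout, and its 5-array difference of -0.97 did not pass the threshold (limma adjusted p = 0.181). As for Igf2r, its lowest values were those of knockout replicate 2 and wild-type replicate 3. Unlike that of Igf2r, its difference stayed at -0.62 without both arrays (limma adjusted p = 0.0077, with the filter). It was called lower in that fit, as were 10.7% of all tested probe sets.

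Ranked but not called with 6 arrays was also Meg3, the noncoding RNA beside Dlk1. Its probe set 1439380_x_at read 5.64, 5.55 and 5.199 in wild type and 6.12, 5.78 and 6.01 in knockout, without overlap, at 0.50 and, with 5 arrays, 0.37 (limma adjusted p = 0.829 and 0.18). The other 4 Meg3 probe sets had 6-array differences of -0.12, -0.38, -0.96 and -0.12, so the probe sets of this gene disagreed in sign. The better measured Igf2 probe set, the growth factor next to H19, read 5.28, 5.38 and 6.45 in wild type and 4.99, 5.26 and 5.15 in knockout, all under the reference 95th percentile. Its difference was -0.57 with 6 arrays and -0.20 with 5 (limma adjusted p = 0.829 and 0.368).

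**Figure D4:**
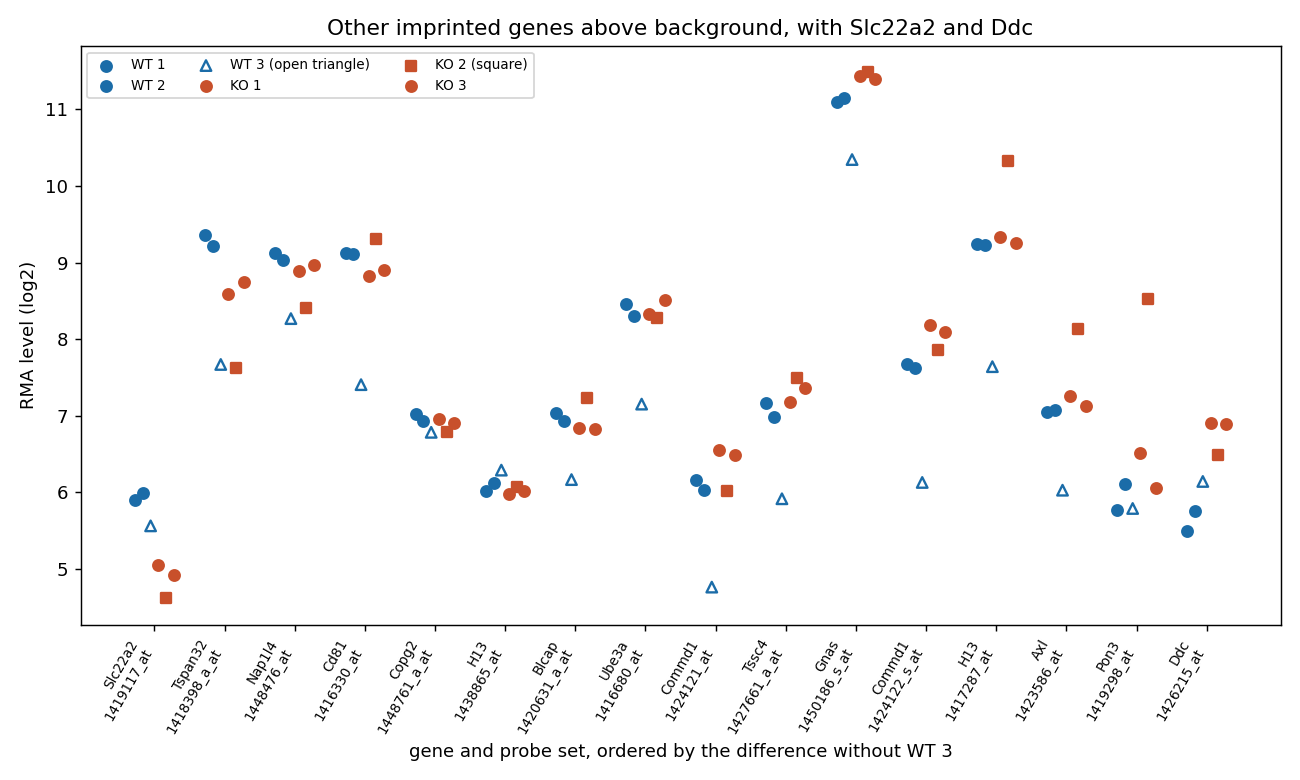
RMA level (log2) on each array of the imprinted genes outside the members that lay above background on 5 arrays, with Slc22a2 and Ddc, ordered by the 5-array difference from lowest to highest. Slc22a2 at the left and Ddc at the right have no overlap between wild type (blue) and knockout (red), while knockout replicate 2 (squares) is the lowest point of Tspan32 and the highest of the brighter H13 probe set, Axl and Pon3.

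Factors that keep imprints were described by a list of 17 genes, of which 13 were measured and 10 tested. With 6 arrays 0 passed the threshold in limma, and 1 had an unadjusted p under 0.05, against 4.08% of all tested probe sets. The median was 0.20 beside 0.15 over all. Without wild-type replicate 3, 1 fell and 0 rose, against 0.737% and 0.633% of all tested. An unadjusted p under 0.05 was then found for 4 of the 10, against 21.8% of all. The median was -0.14 beside -0.07. The gene that fell was Arid4b, a chromatin protein that keeps the imprint of the Snrpn region. Its brightest probe set read 8.33, 8.46 and 5.74 in wild type and 7.76, 7.64 and 7.74 in knockout. With 5 arrays it was the only call among 23 tested regulator probe sets, so no other probe set of Arid4b was called. Wild-type replicate 3 was the lowest array, so that the difference was 0.20 with 6 arrays (limma adjusted p = 0.926) and -0.68 with 5 (SE 0.10, limma adjusted p = 0.0428).

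Uhrf1, which guides Dnmt1 to newly copied DNA, read 7.40, 7.48 and 6.19 in wild type and 8.31, 7.68 and 8.29 in knockout. Its groups did not overlap, and it missed the threshold at 1.07 with 6 arrays and 0.66 with 5 (limma adjusted p = 0.829 and 0.161). Dnmt1, the maintenance DNA methyltransferase, was at 0.99 and 0.25 (limma adjusted p = 0.829 and 0.466), with overlap. Trim28, the corepressor that holds methylation at imprints, was at 0.53 and 0.09. Zfp445, a zinc finger protein of imprint control, was at -0.30 and -0.45, and the histone methyltransferase gene Ehmt2 at 0.19 and -0.25, none of them called. Without wild-type replicate 3 and knockout replicate 2, Uhrf1 (0.86) and Dnmt1 (0.42) were called higher (limma with the filter, adjusted p = 0.00115 and 0.0138). The share of all probe sets called higher in that fit is not given here.

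Partners and relatives of the members made a list of 32 genes, with 26 measured. With 6 arrays 0 of 21 tested and with 5 arrays 0 of 22 passed the threshold in limma, while 0 and 7 had an unadjusted p under 0.05, a p that 4.08% and 21.8% of all tested probe sets had. The medians were 0.18 and 0.03, beside 0.15 and -0.07 over all. Cdkn1b, which encodes p27 of the same inhibitor family as Cdkn1c, read 8.73, 8.86 and 7.10 in wild type and 8.19, 8.45 and 8.18 in knockout on its brightest probe set. Its difference was 0.04 with 6 arrays and -0.52 with 5 (limma adjusted p = 0.98 and 0.096). Notch1 was at -0.03 and -0.46 (limma adjusted p = 0.982 and 0.0902), and Hes1, a target of Notch signalling, at 0.08 and 0.78 (limma adjusted p = 0.97 and 0.123). Ccnd3 and Ccne1, cyclins of the G1 phase, were at 0.67 and 0.59 with 6 arrays, and Notch2 and Igf1r, the receptor for insulin-like growth factor, at 0.61 and 0.35, all with an adjusted p of 0.829 in limma.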

How the data were processed

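The authors deposited log2 expression values, 1 per probe set and array, made with RMA according to the submitters' processing notes. RMA corrects background, normalizes by quantiles and summarises probes. No source used here names its version or which arrays went into it together. Wild-type replicate 3 had quartiles of 5.00 and 6.64, against 4.56 to 4.62 and 7.20 to 7.31 on the others, and the values were used as deposited.

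Of 22690 probe sets, 64 controls were dropped. Symbols were those of the platform's annotation, brought up to date by gene ID with RefSeq (GRCm38.p6), which also gave the promoters and the neighbours within 1 Mb. Of the remaining 22626 probe sets, 20380 had 1 symbol, 691 several and 1555 were not listed.

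Knockout was compared with wild type in limma 3.58.1 (R 4.3.3; lmFit, then eBayes, no covariate). P-values were adjusted by Benjamini-Hochberg over all probe sets fitted, at a threshold of 0.05. Calls came from fits on the brightest probe sets by mean (from 5.18 with 6 arrays and from 5.07 with 5), 13576 in each case. The code was tested on simulated data. In the lists each gene was represented by its brightest tested probe set, and genes to be named were those called and the 4 with the smallest p in each fit. Other genes named were chosen after their values were seen. Members and lists were chosen with earlier results of these data known. Reference genes without Mbp, and the fit of 4 arrays without a filter, were added after the values were seen. Replicate numbers were not used as pairs in the main fits. Deviations of same-numbered arrays from their group means correlated at 0.15, -0.09 and -0.14. With 3 arrays per group, and wild-type replicate 3 far from the others, that check cannot exclude pairing.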

Additional observations from a re-analysis of the deposited data

How the results depend on the processing

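No member passed the threshold under any alternative run on 6 arrays: all probe sets kept, the lowest 60% dropped, robust trended variances, array quality weights (lowest adjusted p = 0.0535), quantile normalization again, median centring, an adjusted p under 0.1, and each array left out in turn (0 to 0). With the replicate number as a block, a pairing that the check above cannot settle, the count was 0 for members, other imprinted genes, regulators and partners. Starting from 5 arrays the count stayed 0 except without knockout replicate 2, where it was 1, Impact, with the filter and 1 without it. Other imprinted genes went from 0 to 7 with array weights (4 higher, 3 lower) and ranged from 0 to 2 with each array left out in turn. The filtered fit of 4 arrays, without wild-type replicate 3 and knockout replicate 2, called 4 of 27 tested higher and 3 lower. Those higher were Ddc, Commd1, Meg3 and Gnas, and those lower Slc22a2, Tspan32 and Pon2. Regulators went from 0 to 3 with weights and ranged from 0 to 1 with each array left out in turn. Partners went from 0 to 5 with weights and 0 to 0 with each array left out. The fit of 4 arrays called 2 of 10 regulators higher (Uhrf1 and Dnmt1) and 1 lower (Arid4b). Of 23 partners it called 2 higher (Igf1r and Ccnd3) and 3 lower (Cdkn1b, Notch1 and M6pr). It called 10.7% of all tested probe sets lower, and its share called higher is not given here. Its counts are not read as results about the lists. The weights gave wild-type replicate 3 0.0288 against 0.451 to 8.23 for the others. Over all tested probe sets, 0.103% were called with 6 arrays and 1.37% without that array. The share called over all with weights is not given here, so the counts with weights are not read as results about the lists. The cause of these moves was not tested.

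The median member difference of -0.03 ranged from -0.16 to 0.04 with arrays left out and was -0.08 after quantile normalization, 0.00 with weights and 0.02 after median centring. Signs of members turned for 9 of 15 both with weights and without wild-type replicate 3, for 3 after quantile normalization and for 3 after centring. With the filter cutoff as background, 5 members were above it in wild type and 4 in knockout. With the highest reference probe set it was 0 and 0, and without Mbp 1 and 4. Leaving out wild-type replicate 3 gave 4 in wild type. No detection calls came with the values, so that background rests on the reference genes.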
